A study of Mus musculus with 3 samples.

Results

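Brown fat (BAT) and epididymal white fat (eWAT) were compared by the places where chromatin was open in fat cells grown from each depot. The 2 lists of DNase I hypersensitive sites were first made equally long. The shorter one, from BAT, held 48308 sites, and the eWAT list of 60974 sites was cut to its 48308 sites with the highest normalized tag count. Sites of the cut lists that overlapped by 1 bp or more were paired. The comparison covers 28593 regions: 27062 shared pairs, 897 strong BAT sites far from any site of the cut eWAT list and 634 strong sites of that list far from any BAT site. The 3 deposited lists of the study, which include inguinal white fat (iWAT), held 99297 separate regions in all. These members were chosen by the tag counts of the 2 libraries themselves, so their tag counts and ranks are a description and were not tested.

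DNase I cuts DNA where it is not packed into nucleosomes, so a pile of cut ends marks an open promoter, enhancer or other regulatory element. Brown adipocytes burn fuel to make heat through the mitochondrial uncoupling protein UCP1. Epididymal fat is a white, lipid-storing depot of the abdominal cavity of male mice, and it develops from other precursor cells than brown fat does. Inguinal fat is a white depot under the skin in which heat-producing cells can appear.

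All cells came from male NMRI mice of 4 to 5 weeks. Interscapular, cervical and axillary brown fat was pooled for the BAT culture, and epididymal and inguinal fat gave the other cultures. The stromal-vascular fraction, which holds fat cell precursors along with other non-fat cells, was plated and differentiated with 30 nM insulin and 1 µM rosiglitazone. This compound is an agonist of PPARγ, the nuclear receptor that drives fat cell formation, and all cultures received it. Cells were harvested on day 8 from cultures in which more than 50% of the cells had differentiated, so undifferentiated cells could make up the remainder. With 1 library per depot, all comparisons set one library against another, and the spread between cultures of a depot is not known. The lists carry no gene names and no mm9 annotation was used here, so the labelled cell types were not checked against marker genes, and each site is given by its mm9 position.

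Depth was modest. One tag was worth 0.857 normalized tags in BAT and 0.595 in eWAT, and the cut lists held 874254 and 1047415 tags. The median site held 14 tags in BAT and 18 in eWAT. Its tag density was 9.23 times that of its surroundings in BAT and 7.87 times in eWAT. Sites were 222 bp wide in BAT and 220 bp wide in eWAT.

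The stronger a site was, the more often the other depot also had it. Of all BAT sites 56.0% overlapped an eWAT site (95% exact binomial interval 55.6 to 56.5%, which covers counting error only, as do all intervals below). Among the strongest 10% of the BAT list the share was 87.1% (86.1 to 88.0%), and among the weakest 10% it was 29.2% (27.9 to 30.5%). The eWAT list gave nearly the same gradient, from 89.3% (88.4 to 90.2%) down to 26.6% (25.4 to 27.9%). Sites with nothing from the other depot within 1 kb followed the opposite course. They made up 3.85% of the strongest 10% of BAT sites and 1.86% of the strongest 10% of eWAT sites, and their intervals did not overlap (3.33 to 4.43% and 1.5 to 2.29%). In the weakest 10% the shares were 60.6% and 61.8%, with overlapping intervals.

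**Figure D1:**
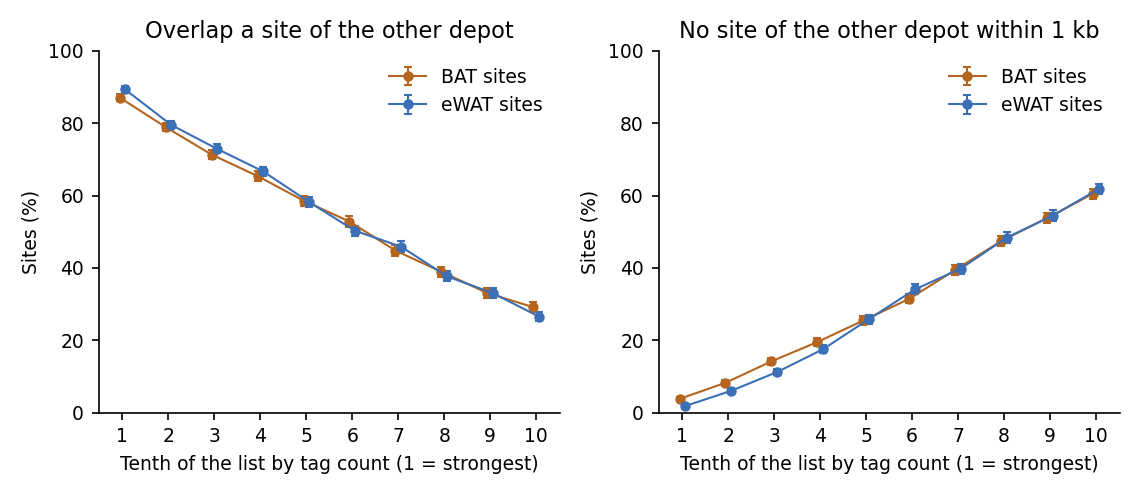
Percent of BAT (brown) and eWAT (blue) sites in each successive 10% of their list, from the strongest (1) to the weakest (10), that overlapped a site of the other depot (left) or had none within 1 kb (right); bars are 95% exact binomial intervals. Overlap falls from 87.1% to 29.2% in BAT and from 89.3% to 26.6% in eWAT, and in the right panel the strongest 10% has 3.85% in BAT and 1.86% in eWAT.

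Each shared site was then given a percentile within its own list, 100 being the strongest, and the eWAT percentile was subtracted from the BAT percentile. The median of this rank change was -0.05 points and the median size of the change was 12.7 points over 27062 pairs. From the 5th to the 95th percentile of pairs it ran from -42.3 to 40.7 points. The BAT and eWAT percentiles had a Spearman rho of 0.659 across pairs, given as a description because pairs within a library share its depth. Changes stayed within 10 points in 42.2% of pairs (11431, called balanced below), within 25 points in 72.3% and within 50 points in 94.4%. Most shared sites thus held a similar place in both lists.

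A site was called BAT-leaning if it stood at least 25 points higher in BAT and eWAT-leaning if it stood at least 25 points higher in eWAT. There were 3595 BAT-leaning sites, which is 13.3% of the 27062 shared pairs, and 3891 eWAT-leaning sites, which is 14.4%. These shares follow from the threshold that defines the classes, so nothing is read from them. The pairs nearest the threshold stood at 25.17 points inside and 24.98 points outside on the BAT side, and at -25.02 inside and between -24.86 and -24.50 outside on the eWAT side. Which class was larger was not stable. The eWAT list was cut within a block of 5630 sites that all held 12 tags, of which 3363 were kept in the order of the deposited list. All kept ones lay on chromosomes 1 to 10 except 19 on chromosome 11. BAT-leaning sites made up 48.0% of leaning sites with this cut, 44.7% when every tied site was kept and 53.7% when none was.

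Large reversals of rank were rare among shared pairs, which by the pairing rule leave out strong sites missing from the other list. Of the shared pairs 6998 stood in the top 25% of both lists. By contrast 281 pairs stood in the top 25% in BAT and the lowest 25% in eWAT, and 291 pairs showed the opposite arrangement. The tag counts behind single sites were small. The median BAT site, with 14 tags, had an exact Poisson interval of 7.65 to 23.5 tags, which spans percentiles 0.0352 to 80.5 of the BAT list. The median eWAT site, with 18 tags, had an interval of 10.7 to 28.5 tags, spanning percentiles 0 to 82.2. For each pair the Poisson intervals were turned into percentile spans of their own lists, and spans that did not overlap are called tag intervals apart. They were apart in 161 of the BAT-leaning sites (4.48%) and 125 of the eWAT-leaning sites (3.21%), against 37 of the balanced sites (0.324%). A lean of 25 points at a single site was therefore, for most sites, not detectable at this depth.

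**Figure D2:**
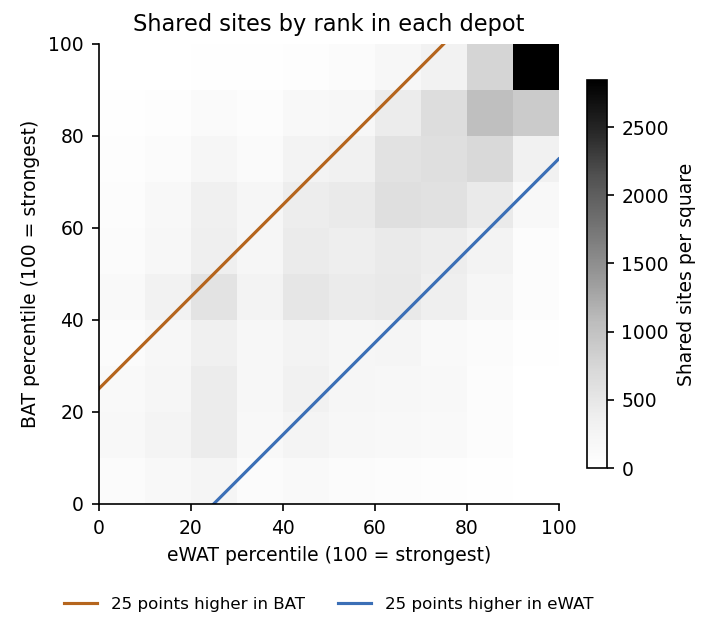
Number of shared sites (grey scale) by percentile in the eWAT list (horizontal, 100 is strongest) and in the BAT list (vertical), in squares of 10 points; pairs above the brown line are BAT-leaning and those below the blue line eWAT-leaning. The darkest square is the one with both percentiles above 90, and the corners with a high rank in 1 depot and a low rank in the other are almost empty.

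The site with the largest lean towards BAT was chr1:182139984-182140206. It held 53 tags in BAT (45.4 normalized, Poisson interval 39.7 to 69.3 tags) and 12 tags in eWAT (7.14 normalized, 6.20 to 21.0 tags), a change of 94.97 points. In iWAT it held 13 tags, at percentile 43.5 of the deposited iWAT list of 63214 sites, which was used neither to choose nor to rank these sites. The site thus stood at percentile 98.45 of the BAT list, while its counterparts in both white depots held few tags.

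The next sites showed several arrangements with respect to iWAT. At chr9:84347129-84347351 BAT had 33 tags and eWAT 12, and no iWAT site overlapped, the nearest lying 70 bp away. At chr2:73518702-73518924 BAT had 32 tags, eWAT 12 and iWAT 11. The site at chr6:53446487-53446709 held 29 tags in BAT, 12 in eWAT and 26 in iWAT, where it stood at percentile 84.5. Likewise chr11:97392927-97393149 had 39 tags in BAT, 13 in eWAT and 29 in iWAT, at percentile 88.4 there, and its BAT tag density was 53.4 times that of its surroundings. These 2 sites were thus high in BAT and in iWAT and low in eWAT.

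Over the 10 sites with the largest lean towards BAT, BAT tags ranged from 27 to 53 and eWAT tags from 12 to 13. The remaining members of this set were chr10:40349800-40350022, chr14:42011537-42011759, chr2:52177393-52177615, chr5:147869454-147869676 and chr6:56031326-56031548. iWAT listed 9 of the 10 sites, at percentiles from 29.0 to 88.4, and 3 of them were in the top 25% of the iWAT list. The set depends on the tied eWAT sites at 12 tags: 6 of the 10 were also among the 10 largest when all tied sites were kept, and 3 when none was.

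At the other end, the change was -89.43 points at chr1:152806432-152806654 and at chr14:21474138-21474360. Both held 9 tags in BAT (7.71 normalized, Poisson interval 4.12 to 17.1 tags) and 39 in eWAT (23.2 normalized, 27.7 to 53.3 tags). They parted in iWAT: the chromosome 1 site held 26 tags, at percentile 84.5, and the chromosome 14 site 12 tags, at percentile 36.7. The same division ran through the set. At chr2:61234208-61234430 there were 9 tags in BAT, 38 in eWAT and 10 in iWAT, so that the eWAT site stood alone in strength. At chr15:32023558-32023780 BAT had 9 tags, eWAT 37 and iWAT 24, so that both white depots stood above BAT.

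Over the 10 sites with the largest lean towards eWAT, BAT tags ranged from 8 to 9 and eWAT tags from 33 to 39. The others were chr18:46564508-46564730, chr13:11192973-11193195, chr19:16588811-16589033, chrX:163767644-163767866, chr1:55657541-55657763 and chr3:132306561-132306783. All 10 overlapped an iWAT site, at percentiles from 20.2 to 84.5, and 6 of the 10 were in the top 25% of the iWAT list, against 3 on the BAT side. All 10 were also among the 10 largest when every tied site was kept, and 9 when none was.

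The ranks of the classes follow from the rule and are given as a description. The median BAT-leaning site stood at percentile 69.3 in BAT (19 tags) and 21.7 in eWAT (14 tags). The median eWAT-leaning site stood at 23.4 in BAT (11 tags) and 69.3 in eWAT (23 tags). The median balanced site stood at 79.5 and 79.3, with 23 and 27 tags.

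The fold of tag density over the surroundings, which was not used to choose the members but rests on the same tags, moved with the lean in both depots. In BAT-leaning sites its median was 11.7 in BAT and 6.91 in eWAT, and in 97.8% of them the fold was higher in BAT. In eWAT-leaning sites it was 8.12 in BAT and 9.71 in eWAT, and the BAT fold was still the higher one in 23.3%. Over all shared pairs the BAT fold was higher in 71.3%, and the median ratio of the BAT to the eWAT fold was 1.19. The fold thus differed between the libraries at sites of every class, and by that measure the balanced sites were also higher in BAT, with a median ratio of 1.21. The focus ratio, a fraction that rises as tags are more sharply centred, showed the same pattern on a smaller scale: it was 0.722 in BAT and 0.667 in eWAT for BAT-leaning sites, and 0.688 and 0.705 for eWAT-leaning sites. With the eWAT list cut, and both lists ranked, by fold in place of tags, BAT-leaning sites made up 67.2% of all leaning sites. The order of the 2 classes thus turned with the measure used for the cut and the ranking together.

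Strong sites of 1 depot that were missing from the other were next examined. The top 25% of each list, 12077 sites, began at 18 normalized tags (21 tags) in BAT and 14.9 (25 tags) in eWAT, and sites on both sides of the boundary held the same count. Of these, 2283 BAT sites (18.9%, 18.2 to 19.6%) and 2135 eWAT sites (17.7%, 17 to 18.4%) overlapped nothing in the other cut list. Most of them were near misses: 1386 BAT sites and 1501 eWAT sites had a site of the other depot within 1 kb, and the median gap of these BAT sites was 99.5 bp. The rest, called far sites, were 897 in BAT, which is 7.43% of the top 25% (6.97 to 7.91%), and 634 in eWAT, which is 5.25% (4.86 to 5.66%). The order turned when the eWAT list was cut, and both lists ranked, by fold over the surroundings in place of tags. There were then 1827 far BAT sites (15.1% of the top 25%) and 3025 far eWAT sites (25.05%). The effects of the cut and of the ranking were not separated. The 5 far sites nearest the 1 kb limit had gaps of 1004 to 1019 bp in BAT and 1016 to 1055 bp in eWAT. The 5 strong unshared sites that just missed it had gaps of 994 to 1000 bp and 974 to 997 bp.

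Far BAT sites lay a median of 4.98 kb and far eWAT sites a median of 5.31 kb from the other depot's nearest site. Gaps over 10 kb were found for 286 and 224 of them, and gaps over 100 kb for 28 and 30. Because the eWAT list had been shortened, 140 of the 897 far BAT sites (15.6%) did have a deposited eWAT site within 1 kb among those left out, and 121 of these overlapped it. The other 757 had none.

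Far sites stood out less from their surroundings than other strong sites. The median fold was 6.92 for far BAT sites against 12.4 for the BAT top 25%, and 8.11 for far eWAT sites against 10.2 for the eWAT top 25%. A fold under 6 was seen in 355 far BAT sites (39.6%) and 219 far eWAT sites (34.5%), but in 8.89% and 12.3% of the top 25%. The authors' lists hold no site with a fold under 4, so a place whose surroundings are also rich in tags can be missing from a list while holding many tags. Whether the far sites with a low fold were absent from the other depot for this reason was not tested.

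The share of far sites fell as this fold rose over its lowest ranges, and above a fold of 8 the intervals within each depot overlapped. Among strong BAT sites with a fold of 4 to 6, 33.1% were far (30.3 to 36.0%), and with a fold of 6 to 8, 11.3% were far (9.65 to 13.0%). The eWAT shares in the same ranges were 14.8% (13.0 to 16.7%) and 4.35% (3.52 to 5.31%), below those of BAT. At folds of 8 to 12 the shares were 4.32% in BAT and 3.95% in eWAT, and at 12 to 20 they were 3.79% and 3.97%, with overlapping intervals. At a fold of 20 or more they were 3.95% (3.11 to 4.95%) and 2.17% (1.22 to 3.56%). At folds of 8 or more there were 384 far BAT and 324 far eWAT sites, so that, with sites ranked by tags, the larger number of far sites in BAT lay mainly at lower folds. Ranked by fold, BAT held the smaller number, 37.7% of all far sites.

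**Figure D3:**
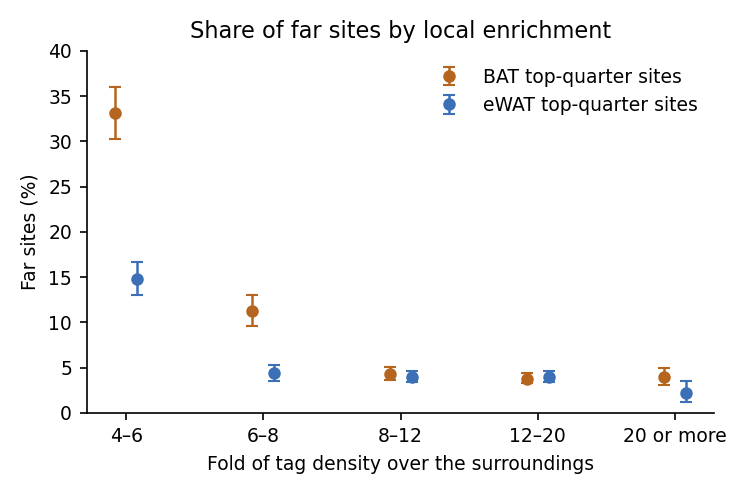
Percent of the top 25% of sites in BAT (brown) and eWAT (blue) that were far from the other depot's sites, by the fold of tag density over the surroundings; bars are 95% exact binomial intervals. The BAT share falls from 33.1% to 11.3% over the lowest ranges and stays near 4% above, and the eWAT share falls from 14.8% to 4.35%.

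The far BAT site with the most tags was chr9:3018875-3019097, close to the start of the chromosome sequence. It held 170 tags in BAT at a fold of 4.57, the nearest site of the cut eWAT list lay 3.46 kb away, and iWAT held 155 tags there, at percentile 99.96. The far eWAT site with the most tags, chr17:39984843-39985063, was of the same kind. It held 201 tags at a fold of 4.23 and lay 774 kb from the nearest BAT site, and iWAT held 208 tags there, at percentile 99.97. The deposited clonal fold was lower at far sites with more tags, for example 0.87 at 66 tags and 0.76 at 125 tags in eWAT. It was 0.70 and 0.66 at the 2 sites described here, where the median far site had 0.95 in BAT and 0.94 in eWAT. These 2 sites were thus strong in iWAT as well and stood out little from their surroundings.

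Some other far BAT sites ranked lower in iWAT. At chr19:34591085-34591307 BAT held 64 tags (Poisson interval 49.3 to 81.7) at a fold of 8.55, with the nearest eWAT site 9.95 kb away, and iWAT held 17 tags, at percentile 63.1. At chr1:38455684-38455906 there were 52 tags at a fold of 28.5, the nearest eWAT site lay 5.38 kb away, and iWAT held 22 tags, at percentile 77.4. The site at chr2:162812798-162813020 held 48 tags at a fold of 20.04, 11.4 kb from eWAT, with 18 tags in iWAT, at percentile 66.7. A sharper site still, chr6:47316211-47316433, held 44 tags at a fold of 31.1, 15.5 kb from eWAT, with 22 tags in iWAT. These 4 sites were above percentile 96 in BAT, between 63.1 and 77.4 in iWAT and absent from the cut eWAT list.

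Among the 10 far BAT sites with the most tags, 6 had a fold under 6 and 7 overlapped an iWAT site. The 3 that had no iWAT site within 1 kb, chr6:115374674-115374896 (54 tags), chr1:195100836-195101058 (52 tags) and chr16:65819283-65819505 (50 tags), had folds of 4.16, 4.29 and 4.51. Members not yet named were chrX:121308573-121308795 (iWAT percentile 94.2), chr4:105228787-105229009 (96.2) and chr18:61597753-61597975 (59.1). With folds of at least 6 required, the 10 highest held 43 to 64 tags, 9 of the 10 overlapped an iWAT site, and 1 of them, chr19:57278484-57278706, had an overlapping eWAT site among those below the shortened list. The 10 included chr13:105306970-105307192, chr9:55098522-55098744, chr14:73935329-73935551 and chr4:40794176-40794398.

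Among the 10 far eWAT sites with the most tags, 7 had a fold under 6, and the 7 that overlapped an iWAT site did so at percentiles from 96.2 upwards. They included chr19:20464959-20465179 (66 tags in eWAT, 56 in iWAT), chr5:125870646-125870866 (59 and 46), chr9:82865324-82865544 (58 and 52), chr4:135699295-135699515 (53 and 42) and chr3:121291866-121292086 (50 and 43). These sites thus stood near the top of both lists. Their iWAT percentiles refer to the deposited list of 63214 sites and their eWAT ranks to 48308 sites, so the ranks were not compared more closely. At chr11:3074113-3074333 (149 tags) and chr9:3037928-3038148 (125 tags) no iWAT site lay within 1 kb, and their folds were 5.70 and 4.17. Over all far sites with an overlapping iWAT site, the median iWAT percentile was 72.6 for BAT and 69.8 for eWAT.

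With folds of at least 6 required, the 10 highest far eWAT sites held 44 to 54 tags. First was chr11:120094276-120094496, with 54 tags at a fold of 6.05 and 44 tags in iWAT. The most sharply enriched was chr16:75961553-75961773, with 44 tags at a fold of 26.4. The nearest BAT site lay 26.6 kb from it and the nearest iWAT site 118418 bp, so within these lists it was a site of eWAT only. At chr13:105209873-105210093 eWAT held 45 tags at a fold of 19.2, with 18 tags in iWAT. At chr1:155650053-155650273 there were 44 tags in eWAT and 42 in iWAT, 23.8 kb from the nearest BAT site. The others were chr15:11889659-11889879, chr9:30531122-30531342, chr11:45902960-45903180, chr3:109281447-109281667 and chr3:122765189-122765409.

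The iWAT list was not used to define any class and served as a separate readout. An iWAT site overlapped 82.0% of BAT-leaning sites (80.7 to 83.2%), 82.9% of eWAT-leaning sites (81.6 to 84.0%) and 86.6% of balanced sites (86.0 to 87.2%). It overlapped 58.5% of far BAT sites (55.2 to 61.8%) and 59.9% of far eWAT sites (56.0 to 63.8%), against 84.2% and 84.1% of the whole top 25% of BAT and eWAT. No iWAT site lay within 1 kb of 263 far BAT sites (29.3%) and 185 far eWAT sites (29.2%). The shares of the opposite classes had overlapping intervals, and iWAT lacked both kinds of far site more often than the top 25% as a whole.

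How strong the iWAT site was differed more between the classes. It was in the top 25% of the iWAT list for 22.6% of BAT-leaning sites (21.3 to 24.1%), 27.7% of eWAT-leaning sites (26.3 to 29.1%) and 57.5% of balanced sites (56.6 to 58.5%). The interval of the eWAT-leaning class thus lay above that of the BAT-leaning class. Balanced sites were stronger in BAT and eWAT to begin with. At a matched mean percentile of both depots, the iWAT overlap and the median iWAT percentile were therefore compared, though not the share in the iWAT top 25%. For a mean percentile of 20 to 35, iWAT overlapped 72.2% of BAT-leaning, 77.2% of eWAT-leaning and 71.6% of balanced sites. For 35 to 50 the shares were 81.3%, 79.5% and 77.1%, for 50 to 65 they were 87.6%, 87.6% and 84.4%, and for 65 to 80 they were 90.2%, 90.5% and 89.9%. Balanced sites had the lowest share in each of these ranges, but the intervals of the classes overlapped each time, so nothing is read from this order. The median percentiles of the listed iWAT sites, in the same order of classes, were 43.5, 49.4 and 49.4 at 20 to 35 and 54.6, 59.1 and 54.6 at 35 to 50. They were 66.7, 69.8 and 66.7 at 50 to 65 and 77.4, 79.5 and 77.4 at 65 to 80. By this median, the large gap in iWAT strength between balanced and leaning sites was not seen at matched strength. The eWAT-leaning median lay above the BAT-leaning median in each range, but only by neighbouring whole tag counts. The medians stood for 13, 15, 18 and 22 iWAT tags in BAT-leaning sites and 14, 16, 19 and 23 in eWAT-leaning sites. They carry no intervals, so nothing is read from this order.

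Where iWAT had a site, its percentile was also compared with those of the other depots, after the iWAT list had been cut to the same 48308 sites. It was nearer to the BAT percentile in 52.3% of 2666 BAT-leaning sites (50.3 to 54.2%) and nearer to the eWAT percentile in 59.8% of 2921 eWAT-leaning sites (58.0 to 61.6%). With the longer deposited iWAT list the shares were 66.7% and 72.9%. The level of these shares changed with the length of the list. They cover only sites that iWAT lists, and balanced sites with a mean percentile of 35 to 50 also had listed iWAT sites at a median percentile of 54.6 in the deposited list, so nothing is read from the shares.

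Far sites with a high and a low fold differed in iWAT in both depots. With a fold under 6, iWAT overlapped 45.6% of far BAT sites (40.4 to 51.0%) and 45.2% of far eWAT sites (38.5 to 52.1%). With a fold of 6 or more it overlapped 67.0% (62.8 to 70.9%) and 67.7% (63.0 to 72.2%). When a low-fold site did have an iWAT counterpart, that counterpart was strong, with a median percentile of 84.5 in both depots, against 59.1 and 63.1 for the sites with a higher fold. Far sites with a fold of 6 or more also lay farther from the other depot's sites, at a median of 7492 bp in BAT and 10711 bp in eWAT, against 3459 and 2528 bp.

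**Figure D4:**
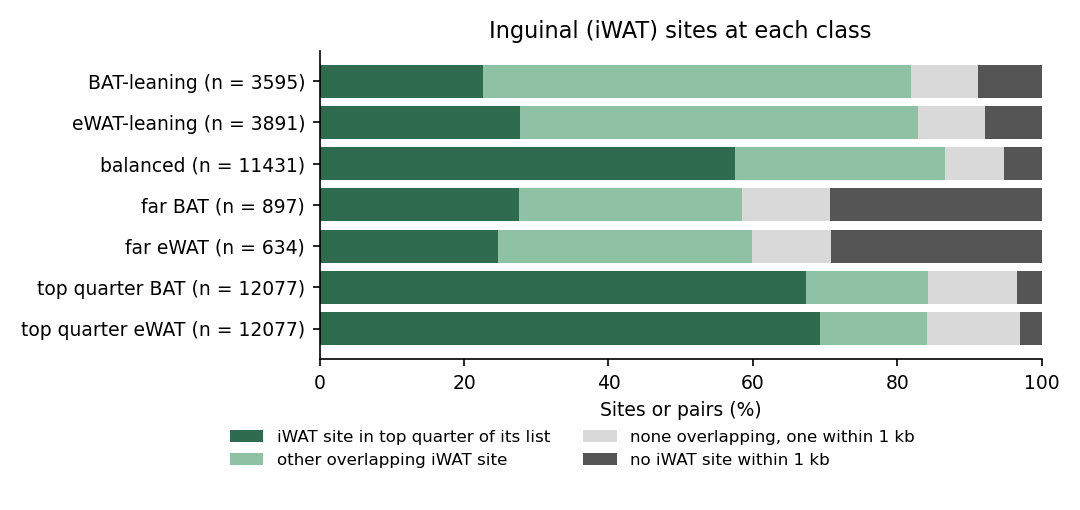
Percent of the sites of each class with an overlapping iWAT site in the top 25% of the iWAT list (dark green), another overlapping iWAT site (light green), none overlapping but one within 1 kb (light grey) or none within 1 kb (dark grey). BAT-leaning and eWAT-leaning bars are nearly alike, and the dark grey share is 29.3% and 29.2% at far sites against 3.45% and 2.99% in the top 25% of BAT and eWAT.

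Leaning sites that lay close together on a chromosome leaned the same way more often than sites farther apart. Of 44 neighbouring shared pairs under 1 kb apart in which both leaned, 38 leaned in the same direction (86.4%, 72.7 to 94.8%), 17 towards BAT and 21 towards eWAT. At 1 to 2 kb the share was 78.2% (64.99 to 88.2%), at 2 to 5 kb 73.4% (63.3 to 82.0%) and at 5 to 10 kb 60.8% (54.2 to 67.1%). From 10 to 20 kb it was 53.1% (47.2 to 58.9%), and from 100 to 1000 kb 53.4% (48.9 to 58.0%). The intervals at these larger distances include 50%, except from 20 to 50 kb, where the share was 58.3% (53.9 to 62.7%). Across all neighbours, Pearson's r of the rank change fell from 0.333 below 1 kb to 0.0314 beyond 100 kb, as a description over 615 and 5333 neighbouring pairs that share both libraries.

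The same pattern appeared from the side of each class. The nearest shared neighbour within 10 kb of a BAT-leaning site was itself BAT-leaning in 21.0% of 1263 cases (18.8 to 23.3%) and eWAT-leaning in 9.34% (7.79 to 11.1%). Around eWAT-leaning sites the shares were 9.55% (8.01 to 11.3%) and 20.6% (18.5 to 22.9%) of 1298 cases. Around all shared sites they were 12.4% and 12.7%.

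**Figure D5:**
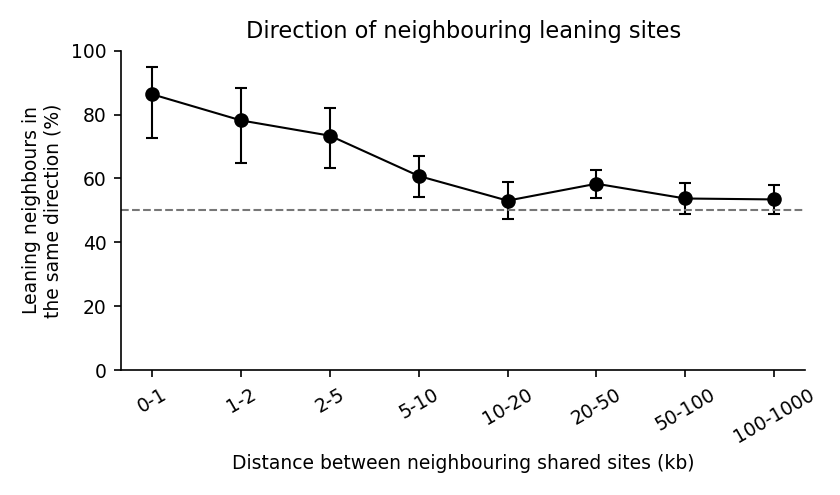
Percent of neighbouring shared sites, both leaning, that leaned towards the same depot, by the distance between them in kb; bars are 95% exact binomial intervals and the dashed line marks 50%. The share falls from 86.4% below 1 kb to 53.1% at 10 to 20 kb.

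On a grid of 100 kb windows, most windows with any BAT-leaning or far BAT site held 1 of them (2948 windows). There were 5 windows with 5, 1 with 6 and 1 with 8. Windows were ordered by this count and not by the share of all their sites. The fullest was chr18:61600001-61700000, with 6 BAT-leaning and 2 far BAT sites against 1 far eWAT site. In this window the BAT list had 13 sites and the eWAT list 12. Its largest lean was at chr18:61607369-61607591, with 47 tags in BAT and 14 in eWAT, a change of 75.86 points. The next shared site, chr18:61608029-61608251 had 36 tags in both libraries (30.8 and 21.4 normalized) and was balanced. Next came chr6:82700001-82800000, where the BAT list had 8 sites and the eWAT list 4, with 1 BAT-leaning and 5 far BAT sites against 1 eWAT-leaning site. Those 5 far sites had folds from 4.63 to 5.83 and lay between 82700775 and 82724446, and iWAT overlapped 3 of them.

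In 2 further windows all sites counted for BAT were far sites. In chr15:85500001-85600000 the BAT list had 9 sites, the eWAT list 1 and the iWAT list 6, and the 5 far BAT sites held 26 to 43 tags at folds from 4.47 to 6.49. In chr11:86400001-86500000 there were also 5 far BAT sites, at folds from 4.40 to 7.57. The same window held 3 balanced sites and 1 eWAT-leaning site, and the lists had 12 BAT and 8 eWAT sites there. The window chr1:135800001-135900000 held 4 BAT-leaning sites and 1 far BAT site against 1 eWAT-leaning site, and the lists had 16 BAT and 11 eWAT sites there.

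Windows for eWAT held fewer far sites. Of windows with any eWAT-leaning or far eWAT site 3114 held 1 and 2 held 5, which was the most. In chr10:95600001-95700000 there were 5 eWAT-leaning sites, none leaning to BAT, with 11 to 14 tags in BAT and 21 to 35 in eWAT. The BAT and eWAT lists had 9 sites each in that window. In chr6:21900001-22000000 there were 3 eWAT-leaning and 2 far eWAT sites, and the BAT and eWAT lists had 13 sites each. In chr11:32200001-32300000 all 4 shared sites leaned towards eWAT, the largest change being -74.68 points at chr11:32249545-32249767, with 10 tags in BAT and 32 in eWAT. There iWAT stood at percentile 87.2. The whole window had 8 BAT and 7 eWAT sites. In all, 13 windows held 4 eWAT-leaning or far eWAT sites, chr16:56800001-56900000 and chr11:90000001-90100000 among them.

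Chromosomes were compared only with all tied eWAT sites kept or none kept, since the cut itself kept them by chromosome. With all kept, BAT-leaning shares of shared sites ran from 9.29% on chromosome 19 (7.44 to 11.4%) to 13.4% on chromosome 6 (11.7 to 15.2%) among autosomes, and the X chromosome had 15.9% (12.8 to 19.3%). With none kept, they ran from 12.1% on chromosome 19 to 16.5% on chromosome 15, and the X chromosome had 19.7% (16.3 to 23.6%). The X chromosome was thus highest and chromosome 19 the lowest autosome both times, although the interval of each overlapped those of several autosomes. Both settings rest on the same libraries, so the second is no repetition. The eWAT-leaning share of the X chromosome, 15.1% and 12.4%, lay inside the range of the autosomes both times.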

How the data were processed

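DNase-seq site lists of 1 BAT, 1 eWAT and 1 iWAT library were used as the authors deposited them. STAR, HOMER and mm9 appear in the submitters' processing notes, with no role or version. Per the file headers, the deposited columns hold for each site a normalized tag count (a signal), a peak score, a focus ratio (a fraction), a fold (ratio) of tag density over the surroundings with its p-value, and a clonal fold. The library total used for normalization is not stated in those sources. Normalized tag counts were whole multiples of 1 step in 100.0% of BAT and 99.9% of eWAT sites (tolerance 0.05, or 0.005 for values below 10), and dividing by the step gave tags. The deposited p-values reached at most 9.76e-05 in BAT and 9.98e-05 in eWAT.

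The eWAT list was cut by tag count, with ties in deposited order. Overlapping sites were paired one to one by largest overlap, and each site was ranked within its list by average rank for ties. Named sites were the 10 with the largest rank change per direction, the 10 far sites per depot with the most tags, the same at folds of at least 6, and the 5 windows of 100 kb with the most sites of a direction. Tied windows were ordered by the summed tags of all their sites of that direction, leaning and far, and then by chromosome. Single sites described within a window were chosen after their values were seen. Members, lists and rules were chosen with earlier results of these data known. With 1 library per depot no test between depots was made. Shares carry 95% Clopper-Pearson intervals and tag counts 95% Poisson intervals, which cover counting error only. The alternatives varied the overlap, the list length, ties, the ranking measure, the thresholds and the minimum fold. On 19000 simulated regions 100% of shared pairs were recovered with 0 false pairs, a check for coding errors only. Gene lists, marker genes and sequence motifs were not analysed here, since the gene table and promoter sequences at hand are of GRCm38 and the sites of mm9. Python 3.11.15, numpy 2.4.6, pandas 2.3.3, scipy 1.17.1 and matplotlib 3.10.9 were used.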

Additional observations from a re-analysis of the deposited data

How the results depend on the processing

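Under the alternatives, 41 values moved by less than their counting error or, for counts, by less than 1.5 times, 58 moved by more and 5 changed direction. The share of BAT sites that was shared was 47.8% with an overlap of 50% of the shorter site, 65.2% with sites within 200 bp included, 61.3% with the lists as deposited, 57.75% and 58.1% with lists of 50% and 25% of the length, 52.1% when cut by fold, 57.2% and 54.3% with all or no tied sites kept, and 53.8% at folds of at least 6. For eWAT sites the same settings gave 47.8%, 65.3%, 48.6%, 57.75%, 58.1%, 52.1%, 54.7%, 58.4% and 53.8%. BAT-leaning sites numbered 1522 at 40 points, 2121 at folds of at least 6 and 161 with tag intervals also apart. eWAT-leaning sites numbered 1559 at 40 points, 6016 with the lists as deposited, 2465 when ranked by fold and 125 with tag intervals also apart. The BAT share of leaning sites turned from 48.0% to over 50% with percentiles among shared sites only (50.5%), by fold (67.2%), with no tied site kept (53.7%) and with tag intervals apart (56.3%), and was 29.4% with the lists as deposited, 49.4% at 40 points, 39.7% at folds of at least 6 and 44.7% with all tied sites kept. Far BAT sites numbered 447 at 5 kb, 286 at 10 kb, 186 in the top 10%, 3451 in the top 50%, 1827 by fold, 1462 from lists with folds of at least 6 and 384 when far sites needed a fold of at least 8. Far eWAT sites numbered 325, 224, 90, 3025, 3025, 766 and 324 under the same settings, in the same order. Where sites were ranked by fold, the eWAT list was also cut by fold. The BAT share of far sites turned from 58.6% to 37.7% by fold, and was 54.4% with the other list as deposited, 67.4% in the top 10%, 53.3% in the top 50%, 65.6% from lists with folds of at least 6, 55.7% and 63.6% with all or no tied sites kept and 54.2% when far sites needed a fold of at least 8. The iWAT overlap was 74.2%, 75.1%, 54.6% and 56.0% of BAT-leaning, eWAT-leaning, far BAT and far eWAT sites with the shortened iWAT list, 91.1%, 92.2%, 70.7% and 70.8% within 1 kb, and 83.4% of BAT-leaning sites at 40 points. The causes of these shifts were not tested. The settings with tag intervals apart, with a fold of at least 8, and with ties for leaning and far sites were added after seeing the data. Other flanks for genes and the central part of sites for motifs were not run. No paired analysis was possible because each depot had 1 library. Depth limits single sites: the median site held 14 tags in BAT and 18 in eWAT.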
